A study of Daphnia magna with 48 samples.

Results

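The 100 genes described here had their highest level on day 2 in the water flea Daphnia magna, with RNA taken from the whole animal after 1, 2 and 4 days. They were chosen on these values. For each gene, log2(CPM + 1) was averaged over the 16 libraries of each day, where CPM is the gene's count scaled to a library total of 1 M counts (M, mega), and the day-2 excess was the day-2 mean minus the higher of the means of days 1 and 4. Of the 16066 genes in the deposited table, 10398 had a mean level from 5 to under 1000 CPM and a spread within groups (W, the pooled SD of log2(CPM + 1) over the 12 groups) under 1. The 100 with the largest excess among them are the genes of this account. The study exposed a field population of the animal, cultured in M4 medium and fed daily, to copper, to arsenic, or to a mixture of both, beside unexposed controls. Each of the 4 treatments has 4 libraries on each of the 3 days, 48 in all, with 7.93 to 20.1 M counts. The sources used here give no dose, no age and no count of animals behind a library. They also do not state whether the 4 libraries of each group stem from different cultures, and p-values measure the spread among these libraries, which may be technical.

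Daphnia grow by moulting: the cuticle is shed and rebuilt under the control of ecdysteroid hormones, and in adult females each cycle is tied to the release of one brood and the ripening of the next. In crustaceans, many genes for cuticle, yolk and digestion are therefore used in turn over the days of a cycle, so levels that rise and fall within days are common in animals that were given no toxicant. Copper is an essential metal that becomes toxic in excess, and arsenic is a toxic metalloid. In whole bodies, more cells of a type and more RNA per cell cannot be told apart.

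None of the identifiers, which begin with Dapma7bEVm, could be paired with a gene name (0 matched the reference gene table). The 100 genes therefore have no stated function here, and no sequence is shown for them. Genes are given by identifier where a value turns on them, and otherwise by their rank in the day-2 excess.

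The rise to day 2 was moderate in most of the 100 genes. The excess was largest in Dapma7bEVm007241t1 at 1.18 on the log2 scale, a 2.27-fold difference, and in Dapma7bEVm029612t1 at 1.16, or 2.24-fold. These 2 were the only genes above 2-fold, and 25 were above 1.5-fold. The median was 0.43, or 1.35-fold. At the limit of the list, the genes ranked 99 and 100 had an excess of 0.316 and 0.314, and those ranked 101 and 102, just outside, 0.310 and 0.309. The list therefore ends inside a continuous distribution, and 1959 of the 10398 genes (18.8%) had an excess above 0. These values chose the genes and are given as a description.

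The mean of log2(CPM + 1) over the 100 genes separated day 2 from the other days in every library. It was between 5.49 and 5.90 in the 16 libraries of day 2 (median 5.63), between 4.66 and 5.16 on day 1 (median 4.92) and between 4.70 and 5.47 on day 4 (median 5.11). Together the genes took 0.879% to 1.30% of a library's counts on day 2, against 0.476% to 0.746% on day 1 and 0.627% to 0.954% on day 4. The 4 treatments were close to each other on day 2, with group means of 5.70 ± 0.14 in controls, 5.67 ± 0.16 with copper, 5.62 ± 0.10 with arsenic and 5.64 ± 0.11 with the mixture (SD, n = 4 libraries each). On day 4 the group means ran from 5.01 ± 0.21 with arsenic and 5.02 ± 0.17 with copper to 5.16 ± 0.14 in controls and 5.20 ± 0.21 with the mixture.

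**Figure D1:**
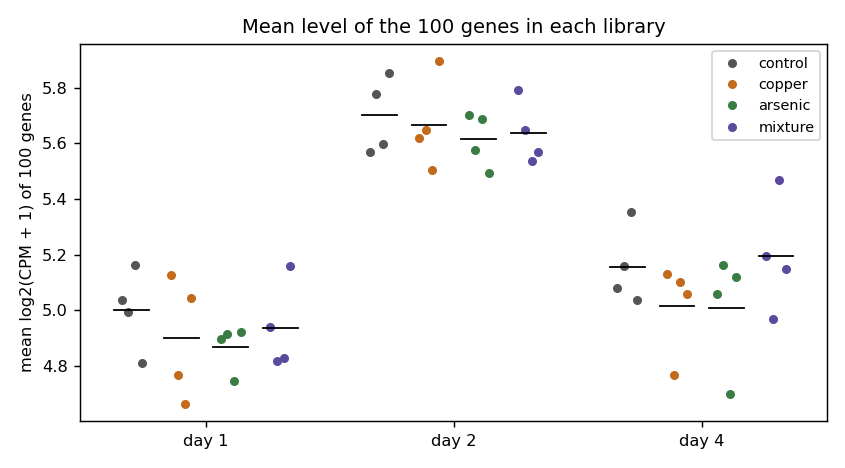
Mean log2(CPM + 1) of the 100 genes in each of the 48 libraries (points), by day on the x axis and treatment by colour; bars are means of 4 libraries. The 16 libraries of day 2 lie between 5.49 and 5.90, above all libraries of days 1 and 4, which is the separation the genes were chosen for.

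Single genes separated the days less cleanly. Dapma7bEVm003958t1, ranked 15, was the 1 gene of the 100 in which all 16 libraries of day 2 lay above the other 32, and it is named for that after its values were seen. Its level was 43.7 to 65.1 CPM on day 2 (median 51.3), 27.0 to 40.2 CPM on day 1 (median 31.1) and 24.4 to 39.6 CPM on day 4 (median 29.4). On day 2 its group means were 58.4 ± 6.46 CPM in controls, 54.0 ± 3.40 with copper, 47.6 ± 4.23 with arsenic and 50.9 ± 7.17 with the mixture. In 24 of the genes at least 8 of the day-2 libraries lay above all 32 others, and in 13 none did.

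The genes with the largest excess showed how much libraries of a group could differ. On day 2 Dapma7bEVm007241t1 was at 79.2, 199, 127 and 61.7 CPM in controls, 73.0, 157, 34.5 and 56.5 CPM with copper, 114, 30.2, 107 and 49.2 CPM with arsenic, and 160, 90.3, 141 and 68.1 CPM with the mixture. The 3 lowest libraries, copper replicate 3 and arsenic replicates 2 and 4, were within the range of day 1 (18.6 to 54.7 CPM, median 29.5), so the 2 days overlapped. On day 4 it was back at 23.6 to 75.5 CPM (median 35.2). Dapma7bEVm029612t1 was at 13.0 to 33.9 CPM on day 2 (median 23.4), against 1.86 to 15.6 CPM on day 1 (median 9.73) and 1.71 to 25.9 CPM on day 4 (median 11.5). Its lowest libraries on days 1 and 4 were both arsenic replicate 3, which are different libraries that share only a number.

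Genes differed in how far they had come back by day 4. With the rise from day 1 to day 2 taken as 100%, a median of 19.5% was still present on day 4 (quartiles −10.3% and 38.7%). In 32 genes the day-4 mean was below the day-1 mean, in 53 it kept between 0% and 50% of the rise, and in 15 over 50%. Dapma7bEVm006082t1, ranked 6, had the highest day 4 relative to day 1, by 2.06 on the log2 scale. Its level was 57.1 to 124 CPM on day 1 (median 74.97), 357 to 955 CPM on day 2 (median 647) and 265 to 436 CPM on day 4 (median 319). Days 1 and 2 did not overlap in this gene, and neither did days 1 and 4. Dapma7bEVm013357t1, ranked 69, had the lowest day 4 relative to day 1 (−0.79 on the log2 scale), with medians of 15.8, 24.3 and 10.4 CPM on days 1, 2 and 4, and its libraries overlapped widely between days (4.16 to 42.6 CPM on day 2).

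**Figure D2:**
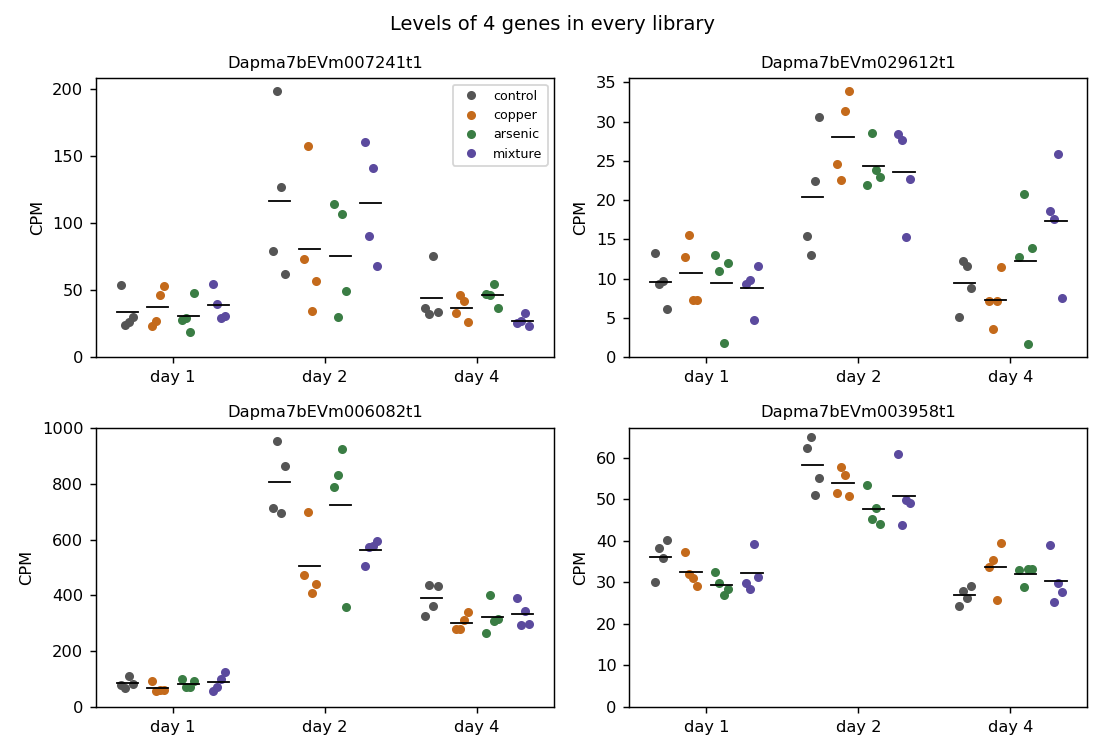
Level in CPM of 4 genes in each of the 48 libraries (points, y axis from 0) by day and treatment; bars are means of 4 libraries. Dapma7bEVm007241t1 and Dapma7bEVm029612t1 have the largest day-2 excess, Dapma7bEVm006082t1 keeps 69.4% of its rise on day 4, and Dapma7bEVm003958t1 is the gene whose 16 day-2 libraries lie above all others.

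The mean level of the 100 genes ran from 5.53 to 433 CPM with a median of 35.4 CPM, close to the median of 33.4 CPM over the 10398 genes. Of the 100, 17 were under 10 CPM and 23 over 100 CPM. No library had fewer than 4 counts for any of them. Their spread within groups was larger than usual for such genes, with a median W of 0.395 against 0.235. Ranking by the excess can itself favour genes with a wide spread, and this was not tested.

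**Figure D3:**
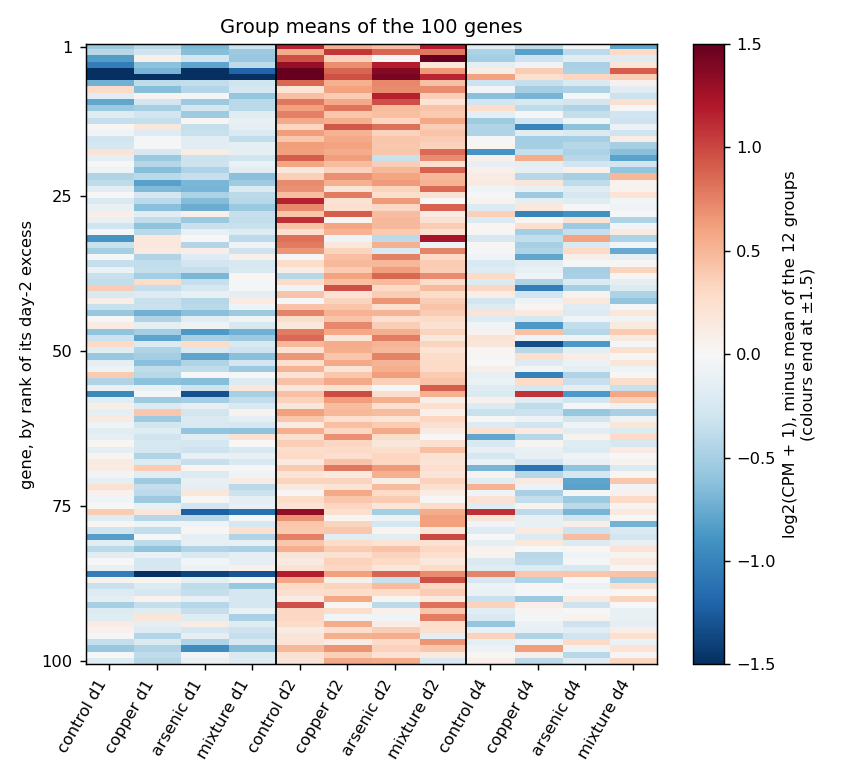
Mean log2(CPM + 1) of each of the 100 genes (rows, by rank of day-2 excess) in the 12 treatment-day groups (columns), minus the gene's mean over the groups; colours end at ±1.5. The 4 columns of day 2 are red for most rows, and single rows depart from this in 1 or 2 treatments.

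Because the excess was averaged over treatments, single treatments could lack it. A day-2 mean above both other days was found in 92 genes in controls, 94 with copper, 89 with arsenic and 85 with the mixture, and 67 genes had it in all 4 treatments, 26 in 3 and 7 in 2. Among the 10398 genes the shares were 22.0%, 16.9%, 23.6% and 33.3% in the same order. The median excess of the 100 was 0.39 in controls and with copper, 0.50 with arsenic and 0.31 with the mixture. With the mixture, 14 of the 100 had a day-4 mean at or above that of day 2, against 4 in controls, 4 with copper and 9 with arsenic. Of the 10 genes with the largest excess, 7 peaked on day 2 with the mixture, against 9 in controls and 10 with each metal alone. The genes ranked 4, 5 and 10 are the exceptions and are described with the mixture below. These counts come from the values that chose the genes and were not tested.

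The choice of genes averaged over the 4 treatments, and differences between treatments were tested. A gene high on day 2 in only some treatments could enter the list through those groups. The tests therefore share values with the choice. All genes, whose shares are set beside those of the 100, were not chosen this way. Each exposure was compared with the controls of its day, the exposures with each other on day 2, and the height of the day-2 peak (day 2 minus the mean of days 1 and 4, on the log2 scale) between each exposure and control. These made 15 comparisons, each fitted over 15813 genes with edgeR's quasi-likelihood test. All 100 genes were tested, and the median standard error (SE) of their log2 fold changes was between 0.276 and 0.341. A gene passed at an adjusted p under 0.05. Only the mixture on day 2 gave calls among the 100 genes, and 14 comparisons gave 0. All comparisons with control on a day share the same 4 control libraries. DESeq2 and limma were used as alternatives. Where they called 0 of the 100, their share of all genes is not given, and the edgeR share is not their background.

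With the mixture, 2 of the 100 genes were called lower on day 2 than in control, where 0.145% of all 15813 genes were called and 0.139% were called lower. Both were high in the controls of day 2, whose values are among those that chose them, so the shares do not compare like with like. Dapma7bEVm006354t1, ranked 26, was at 67.0, 57.0, 64.0 and 81.5 CPM in controls and 34.4, 23.8, 28.7 and 30.8 CPM with the mixture. The 4 mixture libraries lay below the 4 controls, and the fitted level was 0.428 times that of controls (log2 fold change −1.23, SE 0.24, edgeR adjusted p 0.0172). Over days 1, 2 and 4 its control means were 25.7 ± 7.45, 67.4 ± 10.3 and 30.6 ± 3.86 CPM, and those of the mixture 22.0 ± 3.32, 29.4 ± 4.41 and 29.6 ± 10.3 CPM, which describes values that chose the gene. With copper alone this gene was at 34.3, 38.7, 33.2 and 30.9 CPM on day 2, also below every control (−0.98, SE 0.23, edgeR adjusted p 0.809, unadjusted p 1.54e-04). With arsenic it was at 47.8, 52.4, 51.9 and 35.02 CPM, below every control, and its replicate 4 lay within the range of the copper libraries.

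Dapma7bEVm007164t1, ranked 33, was at 16.1, 12.9, 16.2 and 15.4 CPM in controls on day 2 and at 6.08, 7.14, 8.82 and 9.62 CPM with the mixture. The groups did not overlap, and the fitted level was 0.513 times that of controls (log2 fold change −0.96, SE 0.21, edgeR adjusted p 0.0392). The copper libraries, at 10.5, 11.99, 7.81 and 8.42 CPM, lay below the controls as well without passing (−0.65, SE 0.21, edgeR adjusted p 0.9997). With arsenic the gene was at 12.7 ± 1.72 CPM. Both calls depended on single libraries. Dapma7bEVm006354t1 missed the threshold without control replicate 3 or 4 or mixture replicate 1 or 2 of day 2 (edgeR adjusted p 0.0601, 0.0710, 0.0587 and 0.143), and Dapma7bEVm007164t1 without any of these 4 or control replicate 1 (0.149, 0.115, 0.268, 0.246 and 0.104). Dapma7bEVm007164t1 also missed it with the replicate number as a block, in a fit of day 2 only, and without 3 libraries of day 4, control replicates 1 and 4 and mixture replicate 1 (edgeR adjusted p 0.0568, 0.121 and 0.0503). Over all alternatives the adjusted p ran from 3.61e-04 to 0.143 for Dapma7bEVm006354t1 and from 0.00314 to 0.268 for Dapma7bEVm007164t1.

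At an unadjusted p under 0.05, 14 of the 100 genes differed between mixture and control on day 2, 11 lower and 3 higher, where 11.0% of all genes did. That share is near the background. The median log2 fold change of the 100 was −0.05, beside −0.005 over all genes, and it was 0.02 without control replicate 4 and −0.13 without control replicate 1.

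In 3 of the 10 genes with the largest excess, the day-4 mean of log2(CPM + 1) with the mixture was above that of day 2. Dapma7bEVm009820t1, ranked 4, was at 210, 241, 329 and 419 CPM in controls on day 2 and at 112, 106, 157 and 154 CPM with the mixture. All mixture libraries lay below the controls on that day. On day 4 the mixture libraries, at 139, 128, 119 and 145 CPM, overlapped the controls, at 92.0, 136, 79.7 and 120 CPM, with replicates 1 and 4 above all of them. On day 1 the mixture was at 46.7, 74.0, 135 and 128 CPM and the controls at 53.4, 52.1, 77.0 and 46.7 CPM (log2 fold change 0.74, SE 0.30, edgeR unadjusted p 0.0191). Copper was also lower than control on day 2 (−0.61, SE 0.30, edgeR unadjusted p 0.0467). The difference in peak height between mixture and control, which uses all 3 days, was −1.73 on the log2 scale in the fit (SE 0.37). That missed the threshold (edgeR adjusted p 0.0648, unadjusted p 2.87e-05). It was the smallest p of the 100 genes in the comparison of peak heights, in which edgeR called 0 of the 100 and 0.0190% of all genes. DESeq2 called 4 of the 100 and 0.183% of all genes, and limma 0 of the 100. Without mixture replicate 1 of day 1 edgeR called 4 of the 100 and 0.114% of all genes, and without mixture replicate 3 of day 2 it called 1 of the 100 and again 0.114% of all genes. At an unadjusted p under 0.05, 9 of the 100 differed in peak height, 8 lower and 1 higher with the mixture, where 8.62% of all genes differed.

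Dapma7bEVm015081t1, ranked 10, showed the same order. On day 2 it was at 232, 210, 276 and 328 CPM in controls, 205, 224, 222 and 234 CPM with copper, 358, 284, 347 and 205 CPM with arsenic, and 177, 161, 180 and 165 CPM with the mixture. The 4 mixture libraries lay below all 12 others of the day. Against arsenic the log2 fold change was −0.84 (SE 0.19, edgeR adjusted p 0.0642), the smallest p of the 100 genes in that comparison, in which edgeR called 0 of the 100 and 0.0885% of all genes. On day 4 it was at 194, 157, 183 and 171 CPM with the mixture, above all 4 controls (108, 125, 114 and 142 CPM), with a log2 fold change of 0.51 (SE 0.19, edgeR adjusted p 0.9999, unadjusted p 0.0113). Without arsenic replicate 4 of day 2, its lowest library, the adjusted p against arsenic was 0.0254 (1 of the 100 and 0.0633% of all genes called), and over all alternatives it ran from 0.00957 to 0.248. At an unadjusted p under 0.05, 20 of the 100 differed between mixture and arsenic on day 2, 10 higher and 10 lower, where 9.38% of all genes did. DESeq2 called 2 of the 100 and 0.620% of all genes there, and limma 0 of the 100.

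Dapma7bEVm001803t1, ranked 5, was at 124, 122, 174 and 182 CPM in controls on day 2, 79.7, 128, 86.6 and 62.7 CPM with copper, 138, 149, 161 and 68.1 CPM with arsenic, and 80.8, 71.1, 80.3 and 64.9 CPM with the mixture. Mixture libraries lay below all controls, while copper overlapped them in 1 library and arsenic in 3. On day 1 the copper libraries, at 39.0, 33.6, 23.7 and 20.8 CPM, lay above the controls, at 17.8, 11.9, 14.0 and 15.8 CPM. The difference in peak height between copper and control was −1.44 on the log2 scale (SE 0.41, edgeR adjusted p 0.9999, unadjusted p 0.00116). With the mixture the log2 fold change against control was 0.60 on day 1 (SE 0.35, edgeR unadjusted p 0.0934). On day 2 it was −1.06 (SE 0.34, edgeR adjusted p 0.215, unadjusted p 0.0031). On day 4 it was 0.83 (SE 0.34, edgeR adjusted p 0.9999, unadjusted p 0.0178).

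**Figure D4:**
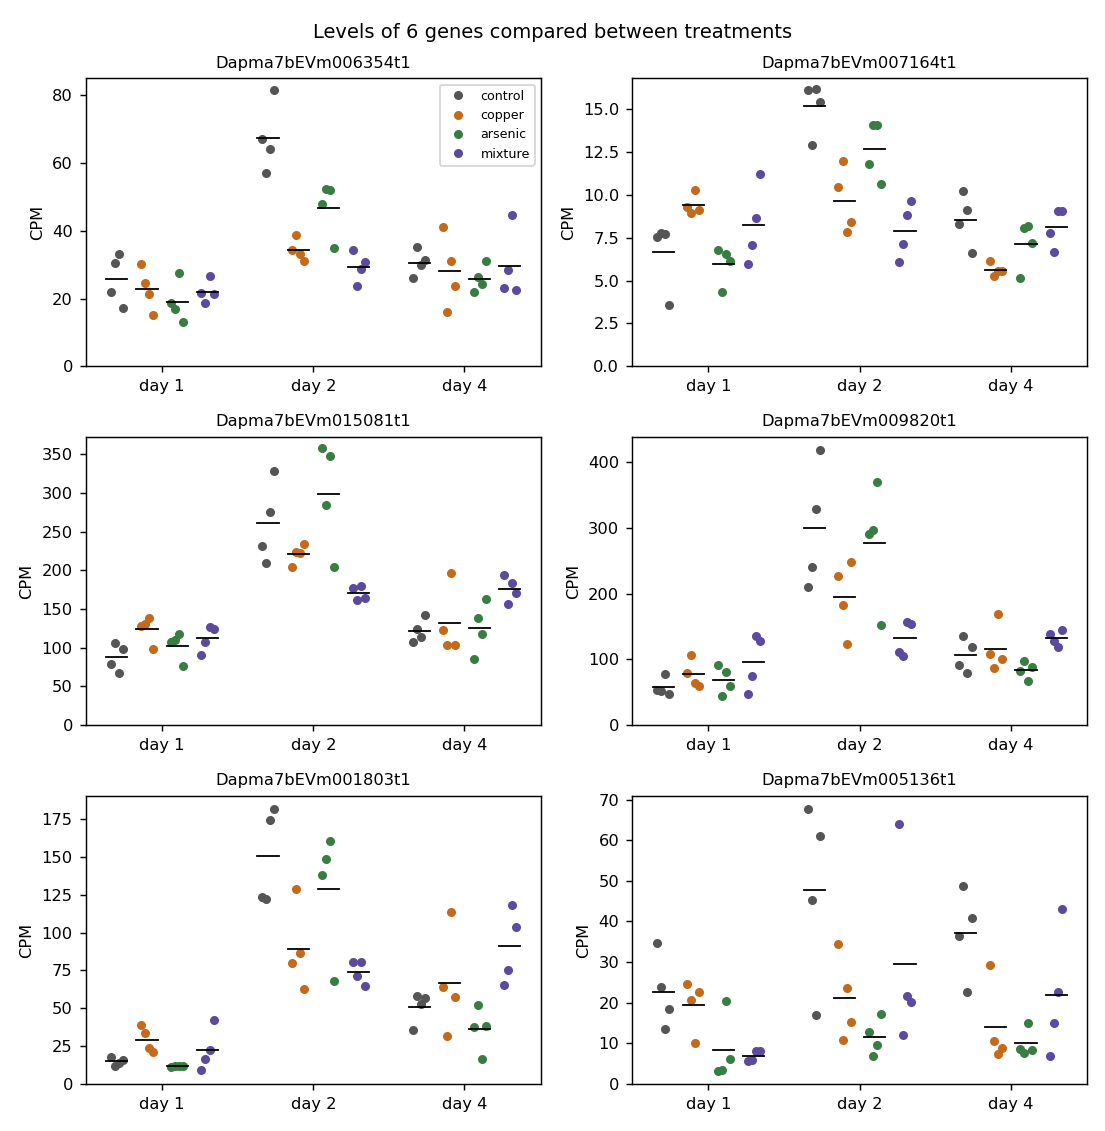
Level in CPM of 6 genes in each of the 48 libraries (points, y axis from 0) by day and treatment; bars are means of 4 libraries. On day 2 the mixture libraries of Dapma7bEVm006354t1, Dapma7bEVm007164t1, Dapma7bEVm015081t1, Dapma7bEVm009820t1 and Dapma7bEVm001803t1 lie below all 4 controls, and Dapma7bEVm005136t1 is low with arsenic on every day.

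With copper alone edgeR called none of the 100 genes on any day, and a larger share of them than of all genes had an unadjusted p under 0.05. For the height of the peak, edgeR called 0 of the 100 and 0% of all genes, as did DESeq2 and limma for the 100. At an unadjusted p under 0.05, 17 of the 100 differed from control, 11 with a higher and 6 with a lower peak, where 2.63% of all genes and 2.55% of the 10398 did. Against control on day 2, edgeR called 0 of the 100 and 0% of all genes (DESeq2 and limma called 0 of the 100), and 12 of the 100 had an unadjusted p under 0.05 (10 lower, 2 higher), where 1.68% of all genes did. On day 1 edgeR, DESeq2 and limma also called 0 of the 100, and edgeR 0% of all genes, while 14 of the 100 had an unadjusted p under 0.05 (8 lower, 6 higher), against 4.91% of all genes. The median log2 fold change of the 100 on day 1 was −0.19, beside −0.01 over all genes, with 70 of the 100 below 0 against 52.1% of all genes. It was −0.10 without control replicate 3 and −0.26 without copper replicate 4 of that day. The 100 genes are not independent of each other, since groups of them moved together from library to library, and these shares were not tested. The 100 were also chosen for their day-2 peak, which all genes were not. A peak in only some treatments could bring a gene into the list, so the shares do not compare like with like.

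On day 1 the gene with the smallest p for copper was Dapma7bEVm015067t1, ranked 61. It was at 98.6, 118, 141 and 96.9 CPM in controls and 83.9, 68.8, 59.9 and 68.4 CPM with copper, without overlap (log2 fold change −0.72, SE 0.17, edgeR adjusted p 0.614). By day 2 the groups overlapped, at 138 ± 19.9 and 123 ± 19.9 CPM. On day 4 the smallest p belonged to a gene that was higher with copper, Dapma7bEVm027505t1, ranked 57. It was at 61.2, 101, 78.3 and 90.1 CPM in controls, 181, 196, 217 and 217 CPM with copper, 53.8, 72.8, 43.2 and 42.0 CPM with arsenic, and 130, 115, 182 and 147 CPM with the mixture on that day. Both groups that received copper lay above the controls and above arsenic, with a log2 fold change of 1.31 for copper (SE 0.30, edgeR adjusted p 0.112) and 0.78 for the mixture (SE 0.30, edgeR adjusted p 0.9999). Copper libraries of day 1, at 106, 98.3, 67.1 and 107 CPM, also exceeded the controls (42.0, 58.0, 74.5 and 29.0 CPM) in 3 of 4. For copper on day 4 edgeR called 0 of the 100 and 0.0696% of all genes, and limma 0 of the 100. DESeq2 called 1 of the 100 and 0.101% of all genes, and a fit of the day-4 libraries alone 1 of the 100 and 0.0267% of all genes. There 9 of the 100 had an unadjusted p under 0.05, where 3.13% of all genes did. The gene called by DESeq2 and by the day-4 fit was Dapma7bEVm027505t1, whose adjusted p ran from 0.0139 to 0.999 over the alternatives.

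With arsenic, 1 gene had the smallest p of the 100 on each day. Dapma7bEVm005136t1, ranked 76, was at 34.6, 23.9, 13.6 and 18.5 CPM in controls of day 1 and 3.18, 3.54, 20.3 and 6.25 CPM with arsenic. On day 2 it was at 67.6, 45.2, 16.8 and 61.1 CPM against 12.7, 6.92, 9.47 and 17.3 CPM, and on day 4 at 36.3, 48.8, 22.5 and 40.8 CPM against 8.67, 7.71, 15.1 and 8.32 CPM. Arsenic was low on every day, with overlap in 1 library on days 1 and 2 and none on day 4. The log2 fold changes were −1.46 (SE 0.54), −2.04 (SE 0.54) and −1.99 (SE 0.54) on days 1, 2 and 4, with edgeR adjusted p of 0.757, 0.972 and 0.351, so none passed. The mixture libraries were low on day 1 (5.68, 6.003, 8.04 and 8.16 CPM, below all controls) and spread widely on day 2 (12.1 to 63.9 CPM) and day 4 (6.79 to 43.0 CPM). With copper it was at 24.5, 20.7, 10.04 and 22.6 CPM on day 1, 34.5, 10.8, 23.5 and 15.3 CPM on day 2, and 29.3, 10.6, 7.34 and 8.93 CPM on day 4. Copper thus also had 1, 2 and 3 libraries below all controls on days 1, 2 and 4, against 3, 3 and 4 for arsenic.

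For arsenic against control edgeR called 0 of the 100 on days 1, 2 and 4, and 0.0126%, 0% and 0.0632% of all genes. DESeq2 and limma called 0 of the 100 on each day, and their shares of all genes are not given here. At an unadjusted p under 0.05, 6, 12 and 13 of the 100 differed, where 5.88%, 3.64% and 8.18% of all genes did, and on day 4 12 of the 13 were lower with arsenic. On days 1 and 4 the median of the 100 lay below 0, at −0.16 and −0.16, with 73 and 69 of the 100 below 0 against 50.1% and 49.4% of all genes. On day 1, 70 of the 100 were also below 0 with copper and 64 with the mixture, against the same controls. The 100 genes are not independent and were chosen on these values. Shares of them here and shares of all genes therefore do not compare like with like and were not tested. The arsenic medians depended on single libraries. On day 1 the median was −0.07 without control replicate 3 and −0.23 without control replicate 4, and on day 4 −0.09 without arsenic replicate 3 and −0.28 without arsenic replicate 2. On day 2 it was −0.05, with 55 below 0, and between −0.15 and 0.02 without single libraries. For the height of the peak edgeR called 0 of the 100 and 0% of all genes, DESeq2 and limma 0 of the 100, and 9 had an unadjusted p under 0.05, where 4.28% of all genes did. The smallest p there was that of Dapma7bEVm008550t1, ranked 38. It was at 5.61, 13.3, 1.21 and 5.20 CPM in controls of day 2 and at 15.3, 15.1, 12.5 and 11.9 CPM with arsenic, with overlap through control replicate 2. Its controls did not peak on day 2, with means of 5.44 ± 0.96, 6.34 ± 5.07 and 8.86 ± 0.81 CPM on days 1, 2 and 4, whereas with arsenic they were 4.04 ± 0.70, 13.7 ± 1.76 and 5.08 ± 2.10 CPM. The high day 2 was not particular to arsenic. Copper was at 11.5, 15.3, 5.79 and 15.0 CPM on day 2, and the mixture at 13.0, 8.22, 15.1 and 13.4 CPM. Against control on day 2 the log2 fold changes were 0.92 with copper (SE 0.38, edgeR unadjusted p 0.0187) and 0.95 with the mixture (SE 0.38, edgeR unadjusted p 0.0153). The difference in peak height between arsenic and control was 1.76 on the log2 scale (SE 0.46, edgeR adjusted p 0.9999, unadjusted p 4.67e-04). Since its controls did not peak, the gene entered the list through the exposed groups. The choice itself therefore favours this difference, and its p is no independent support.

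The other comparisons gave no call among the 100. For the mixture on day 1 edgeR called 0 of the 100 and 0.0253% of all genes, and 5 of the 100 had an unadjusted p under 0.05, where 3.94% of all genes did. The smallest p was that of Dapma7bEVm009617t1, ranked 53, at 16.8 ± 1.16 CPM in controls and 12.1 ± 2.95 CPM with the mixture, with 3 of 4 mixture libraries (8.14, 12.2 and 12.6 CPM) below the lowest control (15.2 CPM) and the fourth at 15.3 CPM (log2 fold change −0.50, SE 0.15, edgeR adjusted p 1). Against the same controls this gene was also lower with copper (−0.36, SE 0.15, edgeR unadjusted p 0.0263) and with arsenic (−0.32, SE 0.15, edgeR unadjusted p 0.0434) on day 1. The median log2 fold change of the 100 for the mixture on day 1 was −0.10, with 64 of the 100 below 0 against 50.9% of all genes. It was −0.04 without control replicate 3, whose omission also gave the smallest shifts for copper and arsenic on that day. Controls were the highest of the 4 treatments on day 1 in 48 of the 100. The 3 exposures share these control libraries and the genes are not independent, so such counts were not tested. For the mixture on day 4 edgeR called 0 of the 100 and 0.0126% of all genes, with 10 of the 100 at an unadjusted p under 0.05 and 3.47% of all genes. For the mixture against copper on day 2, calls by edgeR were 0 of the 100 and 0.00632% of all genes, with 10 of the 100 at an unadjusted p under 0.05, where 7.51% of all genes had one. The smallest p belonged to Dapma7bEVm028208t1, ranked 93, at 85.4, 93.5, 70.8 and 88.9 CPM with the mixture and 67.1, 40.8, 37.0 and 50.2 CPM with copper, without overlap (log2 fold change 0.75, SE 0.25, edgeR adjusted p 0.402). Between copper and arsenic on day 2 edgeR called 0 of the 100 and 0% of all genes, with 7 of the 100 at an unadjusted p under 0.05, where 2.94% of all genes had one. The smallest p was that of Dapma7bEVm015445t1, ranked 48, at 10.6, 22.1, 21.6 and 16.1 CPM with copper and 24.6, 35.5, 29.0 and 17.9 CPM with arsenic, which overlapped (−0.60, SE 0.20, edgeR adjusted p 1.00). In these 4 comparisons DESeq2 and limma called 0 of the 100 as well.

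The 100 genes did not form 1 set that varied together. Each gene's deviations from its 12 group means were correlated with those of every other gene over the 48 libraries, a measure that the choice of genes used only for its size. The median r over the 4950 pairs was 0.0978, against 0.0287 over all pairs of the 10398 genes. Pairs with r over 0.5 made up 8.85% of the pairs, close to 8.55% among the 10398 genes, and pairs under −0.5 made up 0.101%, against 5.46%. All pairs share the same libraries and depth, and the values are a description.

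Average-linkage clustering of these correlations, ended at r = 0.5, gave 6 blocks of at least 4 genes that held 59 of the 100, and 41 genes lay outside them. The blocks were formed after the values had been seen and carry no test. Genes of a block moved together from library to library, so counts of its genes are not counts of separate observations. Block 1 held 20 genes (median r 0.591), among them Dapma7bEVm029612t1. Its mean level was lowest, relative to the group mean, in arsenic replicate 3 of day 4 (−1.21 on the log2 scale) and copper replicate 2 of day 4 (−0.81) and highest in mixture replicate 3 of day 4 (0.72). On day 4 its level was 5.12, 5.54, 3.71 and 5.30 with arsenic, 4.72, 3.88, 5.24 and 4.94 with copper, and 5.19, 5.08, 6.10 and 5.16 with the mixture. The median excess of its genes was 0.85 with copper and 0.62 with arsenic, against 0.14 in controls and 0.10 with the mixture.

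Block 2 held 15 genes at a high level (median of their mean levels 294 CPM, median r 0.588), among them Dapma7bEVm006082t1, Dapma7bEVm015067t1 and Dapma7bEVm027505t1. It varied less than block 1, with deviations between −0.44 (mixture replicate 1 and control replicate 4 of day 1) and 0.33 (arsenic replicate 1 and control replicate 3 of day 1), and it kept a median of 36.4% of its rise on day 4. All 15 genes peaked on day 2 in controls and with arsenic, and 14 with copper and with the mixture. The median excess was 0.54 in controls, 0.46 with arsenic, 0.33 with copper and 0.28 with the mixture.

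Block 3 held 10 genes (median r 0.616), among them Dapma7bEVm028208t1, and differed between treatments in the opposite way to block 1. All 10 peaked on day 2 in controls and with the mixture, with a median excess of 0.57 and 0.93, while 6 did with copper and 4 with arsenic, where the median excess was 0.09 and −0.09. As these genes moved together, the counts describe the same few libraries and are not replicates. On day 2 its mean level was 4.99, 5.58, 4.80 and 5.0002 in controls, 5.71, 5.31, 5.30 and 5.15 with the mixture, 4.54, 4.72, 3.55 and 5.49 with copper, and 4.62, 3.80, 4.17 and 4.67 with arsenic. The arsenic libraries lay below all controls and all mixture libraries, and copper ranged from far below to within them, with replicates 3 and 4 apart by more than the groups. The excess was thus largest with copper and arsenic in block 1 and with the mixture and in controls in block 3, which is a description of values that chose the genes. In block 1 this order rests in part on single libraries of day 4. Arsenic replicate 3 was at 3.71, against 5.12 to 5.54 in the other arsenic libraries. Mixture replicate 3 was at 6.10, against 5.08 to 5.19 in the other mixture libraries. The excess without these libraries is not given.

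Of the smaller blocks, block 4 held 6 genes whose day-4 level was below day 1 in the median (−0.17 on the log2 scale). Block 5 held 4 genes, among them Dapma7bEVm009820t1 and Dapma7bEVm001803t1. Its median excess was 1.32 with arsenic, 1.08 in controls, 0.35 with copper and −0.04 with the mixture, in which 1 of the 4 peaked on day 2. Block 6 held 4 genes, of which 2 peaked on day 2 in controls and 4 with each exposure.

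**Figure D5:**
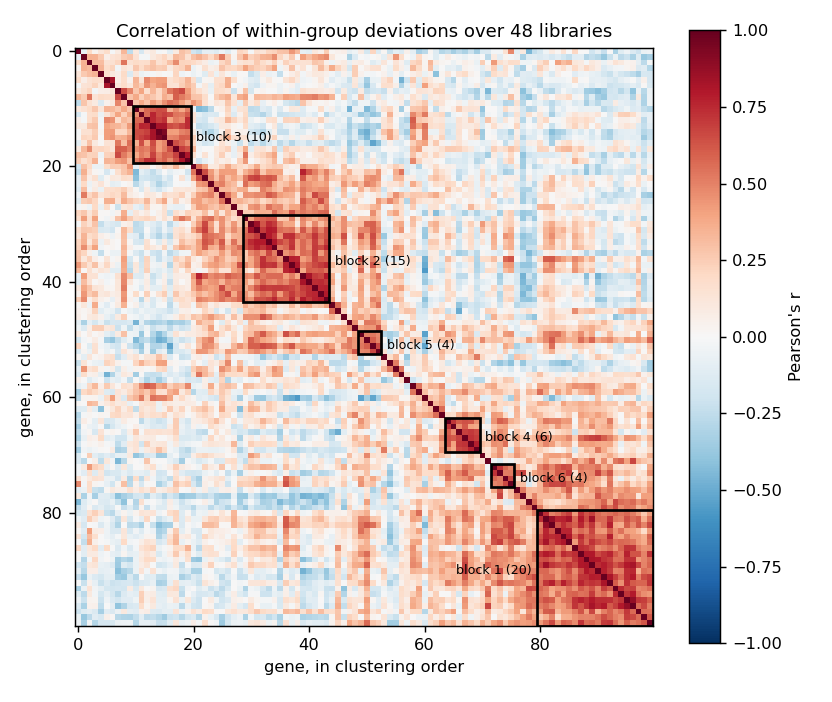
Pearson's r of the deviations from the 12 group means over 48 libraries, for all pairs of the 100 genes in clustering order on both axes; outlined squares are the 6 blocks with their numbers of genes. Block 1 (20 genes), block 2 (15) and block 3 (10) have a median r of 0.591, 0.588 and 0.616, and the median over all 4950 pairs is 0.0978.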

How the data were processed

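RNA was sequenced from 48 whole-body samples. For each gene, the deposited table gives 1 value in each library; it is named as normalised, but the deposited counts are whole numbers with totals from 7.93 to 20.1 M (median 13.3 M), and low values show none of the gaps that rescaling leaves. The authors' tools included edgeR, HTSeq and TopHat2 2.1.1, per the submitters' processing notes, which state no role or order; the genome build, gene models and strandedness of counting are not given in these sources. Genes sharing reads with a near-identical or overlapping gene could not be marked.

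Levels are CPM from library totals. Fits used edgeR 4.0.16 in R 4.3.3 with TMM scaling, 12 groups over 48 libraries, the quasi-likelihood F test (two-sided) and Benjamini-Hochberg adjustment over 15813 genes with at least 14 counts in at least 4 libraries; SE is the log2 fold change divided by the square root of F. Fitted folds use a prior count of 0.125. DESeq2 1.42.0 and limma 3.58.1 were alternatives. Named genes are those with the 2 largest excesses, the extremes of day 4 minus day 1, and per comparison up to 2 called genes in each direction or else the gene with the smallest p. The genes, rules and tests were chosen with earlier results of these data known. Steps were tested on simulated data. Within groups, all 72 pairs of libraries differed by more than sampling noise (chi-square divided by its degrees of freedom at least 9.56).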

Additional observations from a re-analysis of the deposited data

Results flagged for a closer look

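A library was singled out when its gap to the nearest of the other 3 of its group took up more of the group's range than Dixon's critical value for 4 samples allows, as happens by chance in roughly 1 of 20 groups. Of 91 groups of values 3 were singled out, against 4.55 by chance. Arsenic replicate 3 of day 1 had the lowest mean log2(CPM + 1) of the 100 genes in its group, 4.75, against 4.90 to 4.92 in the other 3. Mixture replicate 3 of day 4 had the highest level of block 1 in its group, 6.10, against 5.08 to 5.19. Dapma7bEVm005136t1 was highest in arsenic replicate 3 of day 4, at 4.01 on the log2(CPM + 1) scale (15.1 CPM), against 3.12 to 3.27 in the other arsenic libraries of that day.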

How the results depend on the processing

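Of 880 results under the alternatives, 845 kept their direction and their side of the threshold or stayed within the set limits, and 0 called values reversed. All 270 medians of the 100 genes moved by less than 0.160 on the log2 scale, the pooled SD of the libraries' mean level, which was the limit set for them. That limit exceeds many of the medians themselves: 9 of the 270, in 6 comparisons, had the other sign (mixture, copper and arsenic against control on day 2, mixture against control on day 4, copper against arsenic, and the peak height of the mixture). For the mixture on day 2 the 2 calls became 4 with DESeq2, 1 with the replicate number as a block, 1 when only day 2 was fitted and 1 when 3 libraries of day 4 (mixture replicate 1, control replicates 1 and 4) were left out. Leaving out single libraries gave 0 to 2. Over all genes the 23 calls there became 104 with DESeq2, 13 with the replicate block, 3 with day 2 alone, 14 without the 3 day-4 libraries, and 2 when 1 of mixture replicates 1 and 2 or control replicate 3 of day 2 was left out. For copper on day 4 the 0 calls became 1 with DESeq2 and 1 in a fit of day 4 alone. For the mixture against arsenic on day 2 they became 2 with DESeq2 and 0 to 1 without single libraries, and for the peak height of the mixture 4 with DESeq2 and 0 to 4 without single libraries. The causes were not tested. Replicate numbers showed no pairing of libraries within a day. Same-numbered libraries of a day had deviations correlated at −0.61 to 0.45 (median −0.006), different numbers at −0.60 to 0.60. Same-numbered libraries of different days were not compared. The block changed no other count of calls among the 100.

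The choice of the 100 genes shared 89 with TMM-scaled CPM, 83 with day medians, 76 with no limit on W and a level from 1 CPM, and 92 to 100 without single libraries. The median r was 0.141 with TMM-scaled CPM and 0.0950 with Spearman's rho. The lowest count of any of the 100 genes in a library was 4, so counting error adds to the spread of genes at the lowest levels.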
